A study of Arabidopsis thaliana with 18 samples.

Results

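The comparison concerned 2 populations of GFP-positive cells sorted from roots of the Arabidopsis thaliana tcx2 mutant, FEZ:FEZ-GFP cells and TMO5:3xGFP cells. It used 6 of the 18 samples of the study, 3 libraries of each population, chosen by their labels alone. The study asked how TCX2, a CXC-domain transcription factor, acts in the different stem cells at the root tip, and profiled RNA in 6 groups of 3 replicates, 12 of the libraries being sorted cells of the mutant. All plants were 5-day-old seedlings, and no sorted wild-type cells entered this comparison, so both populations carry a tcx2 mutation and no effect of the mutation itself can be read from the differences described here. The FEZ:FEZ-GFP line carries a fusion of the FEZ protein to GFP, driven by the FEZ promoter, a marker of the initials that give rise to epidermis and lateral root cap. The TMO5:3xGFP line carries a triple GFP driven by the promoter of TMO5, which marks the xylem initials. In the tcx2 mutant, the paper reports wider domains for both markers. The FEZ marker also reached columella stem cells, and the TMO5 marker also reached procambial cells. The reporters had been crossed into a knockdown or a knockout allele of tcx2 and the sources do not say which line carried which, so allele and population cannot be told apart. The study's methods describe the 3 libraries of a population as biological replicates, each grown from its own batch of sterilized seed.

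The root tip is built around a small group of stem cells, or initials, that surround the quiescent center. The initials shared by epidermis and lateral root cap lie on the outside, where FEZ, a NAC transcription factor, promotes the divisions that add new cap layers and its relative SMB restrains them. BRN1 and BRN2, NAC factors related to SMB, act with it in the maturation of cap cells. Xylem initials lie at the center of the vascular cylinder, where TMO5, a bHLH factor, works as a dimer with LHW.

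The 6 libraries differed in quality. Values were FPKM, read fragments normalised for gene length and library size, and the number of reads behind them is unknown, so no counting error can be given. Between 16604 and 18043 genes had a value above 0 in the FEZ:FEZ-GFP libraries, against 18981 to 22170 in the TMO5:3xGFP libraries. Ribosomal RNA took most of the FPKM sum, 80.7% to 81.7% in FEZ:FEZ-GFP cells and 78.1% to 84.8% in TMO5:3xGFP cells. Mitochondrial genes took 7.59% to 9.1% of the FPKM sum in FEZ:FEZ-GFP cells and 4.05% to 9.6% in TMO5:3xGFP cells. On log2(FPKM + 1), replicates 1 and 2 of FEZ:FEZ-GFP correlated across genes at 0.866, while its replicate 3 correlated with them at 0.742 and 0.777, close to its correlations of 0.764 and 0.771 with TMO5:3xGFP replicates 1 and 3. Among the TMO5:3xGFP libraries, replicate 2 stood apart in level. Its median over tested genes was 2.069 on the log2 scale, against 1.482 to 1.75 in the other 5 libraries.

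Of 33560 listed genes, 7801 reached 1 FPKM in at least 3 of the 6 libraries and were tested with limma on log2(FPKM + 1). A gene was called at a Benjamini-Hochberg adjusted p under 0.05 and a fold over 2. FEZ:FEZ-GFP cells had 3 genes called higher, 0.0385% of those tested, and 48 called lower, 0.615% of those tested. The 48 lower genes comprised 43 nuclear, 4 chloroplast and 1 mitochondrial gene. In 13 of them the value was 0 in all 3 FEZ:FEZ-GFP libraries, and in 40 of them the highest of the 6 values was TMO5:3xGFP replicate 2. Before adjustment, 211 genes with a p under 0.05 and a fold over 2 were higher and 616 lower. Without a model, all 3 FEZ:FEZ-GFP values lay above all 3 TMO5:3xGFP values in 412 genes, 5.28% of those tested, and below them in 938, 12% of those tested. A gene under 1 FPKM in all 3 libraries of a group could pass the filter only through the other group. For such genes, here and below, the filter fixed the lack of overlap. The median difference over tested genes was -0.11, and centring each library on its median turned this second split to 800 above and 779 below, so the excess of lower genes without a model depended on the scale of the libraries. Among calls, higher genes made up 5.88% as deposited and 16.7% after quantile normalization, which called 4 higher and 20 lower.

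The number of calls depended on single libraries. Leaving out FEZ:FEZ-GFP replicate 1 left 1 higher and 56 lower, leaving out its replicate 2 left 0 and 16, and leaving out its replicate 3 gave 23 and 66. Without TMO5:3xGFP replicate 1 there were 0 higher and 17 lower genes, without its replicate 2 there were 1 and 8, and without its replicate 3 there were 12 and 123. Without TMO5:3xGFP replicate 2, 8 of the 48 lower calls and none of the 3 higher calls remained. Each of the 51 genes kept its direction in every one of these fits. None of the 51 had overlapping values between the groups, so leaving out a library could not reverse a direction. Leaving out both libraries that stand apart, FEZ:FEZ-GFP replicate 3 and TMO5:3xGFP replicate 2, gave 4 higher and 11 lower genes, and 6 of the 48 lower calls remained.

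**Figure D1:**
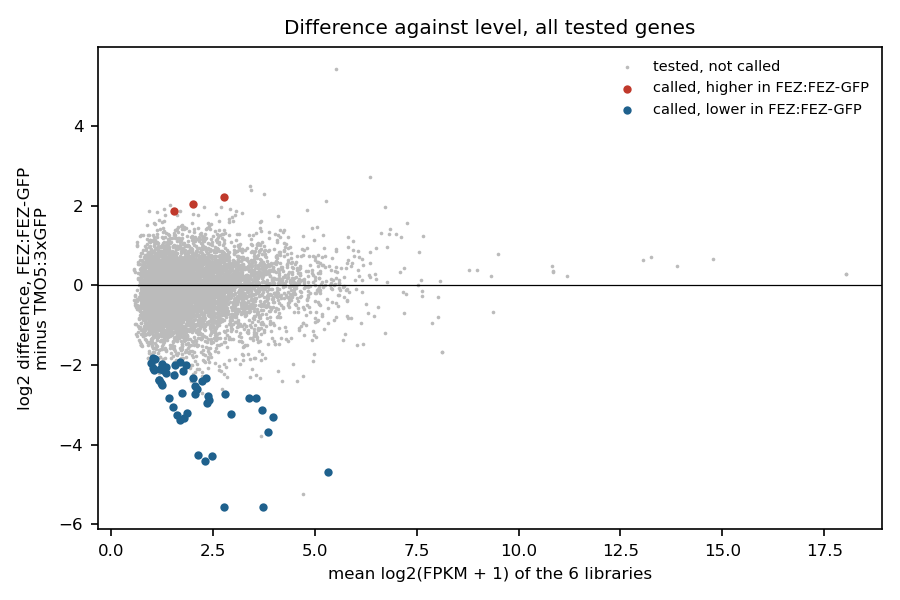
Difference between FEZ:FEZ-GFP and TMO5:3xGFP on the log2(FPKM + 1) scale (vertical) against the mean over the 6 libraries (horizontal), 1 point per tested gene. The 3 genes called higher in FEZ:FEZ-GFP lie near 2, while the 48 called lower reach down to -5.57.

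Genes called higher in FEZ:FEZ-GFP cells were few and of moderate level. AT4G35030, a protein kinase gene on chromosome 4 (16675377 to 16678206), had 17.2, 9.92 and 15.02 FPKM in FEZ:FEZ-GFP cells, against 1.04, 2.36 and 3.67 FPKM in TMO5:3xGFP cells. The lowest FEZ:FEZ-GFP library was thus well above the highest TMO5:3xGFP library, a difference of 2.21 ± 0.45 on the log2 scale (SE, as for every difference below; adjusted p = 0.0396 by limma). The other 2 genes both encode terpenoid cyclases, the enzyme class that forms terpene skeletons. AT1G31950 had 10.4, 6.76 and 5.08 FPKM in FEZ:FEZ-GFP cells, against 1.33, 0.847 and 0.810 FPKM in TMO5:3xGFP cells, a difference of 2.04 ± 0.41 (adjusted p = 0.0396). AT1G70080 had 5.56, 4.68 and 3.62 FPKM in FEZ:FEZ-GFP cells, against 0.194, 0.823 and 0.582 FPKM in TMO5:3xGFP cells, a difference of 1.88 ± 0.39 (adjusted p = 0.0422). All 3 calls were lost without FEZ:FEZ-GFP replicate 1 or 2 or without TMO5:3xGFP replicate 1 or 2, with adjusted p between 0.0685 and 0.2202. Among the 36 annotated terpene cyclases and synthases, 5 were tested, of which these 2 were called and 4 had all FEZ:FEZ-GFP values on top, against 0.0385% and 5.28% of all tested genes. The family was chosen after its values were seen. AT1G70080 was under 1 FPKM in every TMO5:3xGFP library, so the filter fixed its lack of overlap. The median of the 5 was 0.86, against -0.11 over all tested genes.

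The largest differences were decreases in FEZ:FEZ-GFP cells, in some genes to values at or near 0 and in others to a level that could still be measured in every library. AT1G50060 encodes a member of the CAP superfamily of cysteine-rich secreted proteins, to which the pathogenesis marker PR1 belongs. It had 1.297, 0.746 and 0.806 FPKM in FEZ:FEZ-GFP cells, against 101.6, 236.6 and 30.6 FPKM in TMO5:3xGFP cells, a difference of -5.57 ± 0.60 (adjusted p = 0.000428). It remained called without each library in turn, at adjusted p of 0.0039 or less. Genes annotated by product as late embryogenesis abundant (LEA), LEA-like or LEA-related were the nuclear family with the most calls among those examined. The 3 called members are annotated only as LEA-like or LEA-related. Of 26 tested LEA genes, 3 fell, against 0.615% of all tested genes, 17 had a negative difference and the median was -0.60, against -0.11 over all tested genes. AT5G54370 had 8.25, 8.36 and 4.62 FPKM in FEZ:FEZ-GFP cells and 268.4, 615.5 and 49.3 FPKM in TMO5:3xGFP cells, a difference of -4.69 ± 0.70. AT4G27400 was listed at 0, 0 and 0.234 FPKM in FEZ:FEZ-GFP cells, against 33.9, 59.7 and 4.59 FPKM in TMO5:3xGFP cells, a difference of -4.41 ± 0.66. Both had an adjusted p of 0.00542 and lost the call without TMO5:3xGFP replicate 2. AT5G60530, LEA-related, averaged 4.02 ± 2.83 FPKM in FEZ:FEZ-GFP cells and 48.2 ± 32.9 FPKM in TMO5:3xGFP cells (SD, n = 3 each by limma, adjusted p = 0.0421), and lost the call without FEZ:FEZ-GFP replicate 3 or TMO5:3xGFP replicate 1 or 2.

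EFE (AT1G05010), the ethylene-forming enzyme that carries out the last step of ethylene synthesis, had 0.0824, 0.323 and 0.384 FPKM in FEZ:FEZ-GFP cells, against 27.2, 72.9 and 6.14 FPKM in TMO5:3xGFP cells. Every TMO5:3xGFP library exceeded the highest FEZ:FEZ-GFP library many times over, with a difference of -4.29 ± 0.64 (adjusted p = 0.00542, and 0.05396 without TMO5:3xGFP replicate 2). ACS6, which makes the ethylene precursor and was the other tested gene of the pathway, had overlapping values, with a difference of -0.60 (adjusted p = 0.656). IBH1 (AT2G43060), a bHLH protein known to restrain cell elongation, had 0.290, 0 and 0 FPKM in FEZ:FEZ-GFP cells and 6.36, 23.9 and 6.13 FPKM in TMO5:3xGFP cells. Its difference of -3.33 ± 0.49 (adjusted p = 0.00542) remained called without each library in turn. The calls also held both tested genes of the stigma-specific Stig1 family, named after small secreted proteins of the pistil. Of all tested genes, 0.615% were called lower. Both Stig1 genes were under 1 FPKM in every FEZ:FEZ-GFP library and passed the filter only through TMO5:3xGFP, which fixed their lack of overlap. AT4G26880 was listed at 0 in all FEZ:FEZ-GFP libraries and at 6.01, 35.9 and 3.35 FPKM in TMO5:3xGFP cells (adjusted p = 0.0218), a call lost without TMO5:3xGFP replicate 2. AT5G55110 had 0.253, 0.360 and 0 FPKM in FEZ:FEZ-GFP cells, against 14.3, 32.4 and 1.56 FPKM in TMO5:3xGFP cells (adjusted p = 0.0462), a call lost without FEZ:FEZ-GFP replicate 2 or 3 or TMO5:3xGFP replicate 1 or 2.

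Of the remaining genes with the largest decreases, AT5G50562, an uncharacterized gene, was listed at 0 in every FEZ:FEZ-GFP library and had 4.34, 8.85 and 15.6 FPKM in TMO5:3xGFP cells (adjusted p = 0.00463). It is one of the genes in which TMO5:3xGFP replicate 2 was not the highest. AT1G52070, a mannose-binding lectin, averaged 3.24 ± 1.62 FPKM in FEZ:FEZ-GFP cells and 86.9 ± 79.0 FPKM in TMO5:3xGFP cells (SD, n = 3 each by limma, adjusted p = 0.0462). BCB (AT5G20230), a blue-copper-binding protein, had 0.221, 3.67 and 1.83 FPKM in FEZ:FEZ-GFP cells, against 20.2, 67.2 and 8.17 FPKM in TMO5:3xGFP cells (adjusted p = 0.0396). AT1G52070 and BCB both lost the call without TMO5:3xGFP replicate 1 or 2, AT1G52070 also without FEZ:FEZ-GFP replicate 2 or 3, and BCB without FEZ:FEZ-GFP replicate 1. No tested peroxidase, expansin, pectin enzyme, xyloglucan endotransglucosylase, glutathione transferase, cytochrome P450 or ribosomal protein gene was called in either direction. At an unadjusted limma p under 0.05 and a fold over 2 these families had between 0 and 5 higher and between 0 and 14 lower genes. The 14 lower were among 24 tested glutathione transferases, while ribosomal proteins had 10 lower of 250. Pectin enzymes had 5 higher of 43 tested and cytochromes P450 had 5 of 36. Of all 7801 tested genes, 211 were higher and 616 lower at those thresholds.

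**Figure D2:**
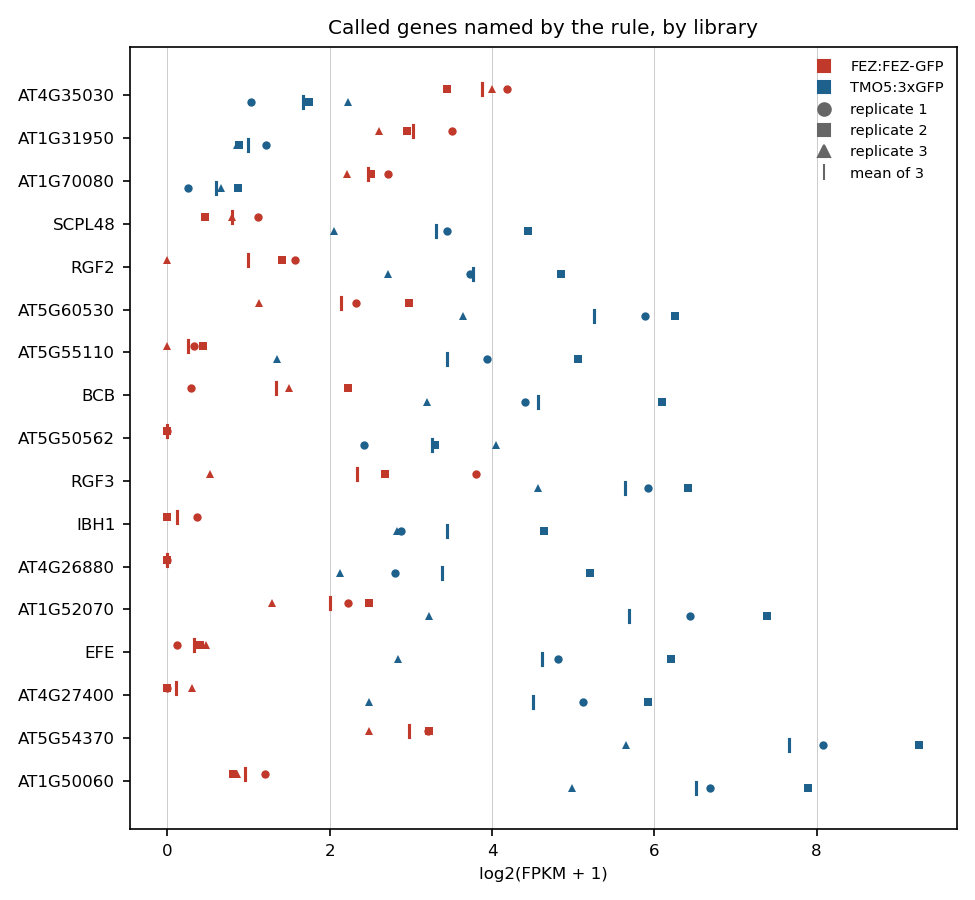
Level of the named called genes in each library, as log2(FPKM + 1) on the horizontal axis, with FEZ:FEZ-GFP above TMO5:3xGFP for each gene. In all 17 genes the 3 FEZ:FEZ-GFP points lie entirely on one side of the 3 TMO5:3xGFP points. For the genes named by size of difference, the choice itself required this. The TMO5:3xGFP square, replicate 2, is often the rightmost.

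RGF (also GLV) peptides are secreted signals of the root tip that sustain the meristem through the PLT transcription factors. Of 9 RGF genes, 4 were tested, all 4 had a negative difference, and 2 fell, against 0.615% of all tested genes. RGF3 (AT2G04025) had 12.97, 5.41 and 0.435 FPKM in FEZ:FEZ-GFP cells, against 59.7, 84.4 and 22.7 FPKM in TMO5:3xGFP cells, a difference of -3.30 ± 0.70 (adjusted p = 0.0461). RGF2 (AT1G13620) had 1.97, 1.65 and 0 FPKM in FEZ:FEZ-GFP cells and 12.3, 27.9 and 5.58 FPKM in TMO5:3xGFP cells, a difference of -2.77 ± 0.56 (adjusted p = 0.0396). Both calls were lost without FEZ:FEZ-GFP replicate 2 or 3 or TMO5:3xGFP replicate 1 or 2, and FEZ:FEZ-GFP replicate 3 was the lowest library for both. RGF4 did not overlap either but missed the threshold at -1.56 (adjusted p = 0.151), and RGF8 overlapped at -1.08. Thus 3 of the 4 had every FEZ:FEZ-GFP value below, as 12% of all tested genes did. RGF7, too low to be tested, ran the other way, with 2.43, 0.823 and 0.648 FPKM in FEZ:FEZ-GFP cells and a listed value of 0 in all TMO5:3xGFP libraries.

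PLT genes encode AP2-type transcription factors whose level sets stem cell activity. None of the 4 tested members was called, although all 4 differences were negative, 3 of them at an unadjusted limma p under 0.05, with a median of -1.20 against -0.11 over all tested genes. These 3 also had a fold over 2, and 616 of all 7801 tested genes were lower at both thresholds. PLT3 (AT5G10510) had 4.63, 6.69 and 7.58 FPKM in FEZ:FEZ-GFP cells, against 22.8, 41.7 and 11.8 FPKM in TMO5:3xGFP cells, with no overlap (-1.71, adjusted p = 0.127). PLT2 did not overlap either (-1.18, adjusted p = 0.264), while PLT1 and BBM did. Thus 2 of the 4 had every FEZ:FEZ-GFP value below, as 12% of all tested genes did. WOX5, the homeobox gene of the quiescent center, was listed at 0 in all FEZ:FEZ-GFP libraries and at 1.49, 0.997 and 0 FPKM in TMO5:3xGFP cells. The summed FPKM of the 11 quiescent center and niche genes was 12.3 to 17 in FEZ:FEZ-GFP cells and 22.2 to 78.9 in TMO5:3xGFP cells.

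None of the root cap NAC factors was called. SMB had 7.24, 4.24 and 1.91 FPKM in FEZ:FEZ-GFP cells, against 3.19, 4.98 and 3.19 FPKM in TMO5:3xGFP cells (0.09 ± 0.45, adjusted p = 0.968, with a 95% interval of -0.88 to 1.05). BRN1 had 0.456, 2.74 and 0.267 FPKM in FEZ:FEZ-GFP cells and 5.69, 5.05 and 1.90 FPKM in TMO5:3xGFP cells (-1.36 ± 0.49, adjusted p = 0.224). Only FEZ:FEZ-GFP replicate 2 overlapped the TMO5:3xGFP values of BRN1. BRN2, too low to be tested by limma, had 0.478, 0 and 0 FPKM in FEZ:FEZ-GFP cells and 2.07, 1.19 and 0.391 FPKM in TMO5:3xGFP cells, with overlap in 1 library of each (exact p = 0.2). FEZ itself had 2.90, 0.949 and 0.347 FPKM in FEZ:FEZ-GFP cells, where its value can also contain reads of the reporter fusion, and 0.702, 0.917 and 0.409 FPKM in TMO5:3xGFP cells. Of the genes of late cap development, 1 could be tested. The summed FPKM of the 8 listed genes of cap maturation and cell release was 0.996 to 1.96 in FEZ:FEZ-GFP cells and 3.99 to 39.3 in TMO5:3xGFP cells, most of it from SCPL48 and CEL5. SCPL48 (AT3G45010), a serine carboxypeptidase, fell to 1.16, 0.382 and 0.737 FPKM in FEZ:FEZ-GFP cells, against 9.88, 20.8 and 3.15 FPKM in TMO5:3xGFP cells (-2.52 ± 0.53, adjusted p = 0.0461), a call lost without FEZ:FEZ-GFP replicate 2 or 3 or TMO5:3xGFP replicate 1 or 2. CEL5, a cellulase of cap cell shedding, was too low in most libraries to be tested and had 0, 0.213 and 0.0743 FPKM in FEZ:FEZ-GFP cells, against 7.34, 12.7 and 0.724 FPKM in TMO5:3xGFP cells. In sorted bulk cells, fewer cells of a type and less RNA per cell cannot be told apart.

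Genes of differentiating xylem were low in both populations, and none exceeded 1.81 FPKM in any library. None of 17 genes of differentiating xylem was tested, and their summed FPKM was 0.411 to 2.83 in FEZ:FEZ-GFP cells and 1.75 to 2.08 in TMO5:3xGFP cells. TMO5 had 0, 0 and 0.454 FPKM in FEZ:FEZ-GFP cells and 0, 0.206 and 0 FPKM in TMO5:3xGFP cells, and its paralog T5L1 was likewise at 0 in 4 of the 6 libraries. LHW, the partner of TMO5, overlapped (-0.25, adjusted p = 0.842). The 17 measured genes of the TMO5-LHW and stele patterning list summed to 5.22 to 6.87 FPKM in FEZ:FEZ-GFP cells and 6.75 to 21.8 FPKM in TMO5:3xGFP cells. The 12 cambium and phloem genes summed to 0.583 to 2.66 FPKM in FEZ:FEZ-GFP cells and 2.73 to 3.62 FPKM in TMO5:3xGFP cells, without overlap, though none of them exceeded 1.13 FPKM in any library. No gene of the cambium and phloem, pericycle, ground tissue or nuclear photosynthesis lists passed the filter. Epidermal genes were measured in both populations. WER, a MYB factor of epidermal patterning, had 6.27, 5.87 and 4.84 FPKM in FEZ:FEZ-GFP cells and 1.78, 5.86 and 4.26 FPKM in TMO5:3xGFP cells (0.51, adjusted p = 0.687). Of 8 tested root hair genes none was called or passed an unadjusted limma p of 0.05 with a fold over 2, and their summed FPKM of 32.9 to 115 in FEZ:FEZ-GFP cells overlapped that of 39.1 to 121 in TMO5:3xGFP cells. RHD6, which starts root hair growth, alone among them had all 3 FEZ:FEZ-GFP values on top (0.99, adjusted p = 0.291), as 5.28% of all tested genes did.

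For 7 genes of interest that missed the filter, FEZ, BRN2, TMO5, T5L1, WOX5, CYCD6;1 and TCX2, an exact two-sided permutation test over the 20 arrangements of the 6 labels gave unadjusted p of 0.2 or more, where 0.1 is the smallest it allows. TCX2, the mutated gene, had 0.389, 0.722 and 0.271 FPKM in FEZ:FEZ-GFP cells and 0.105, 0 and 0.402 FPKM in TMO5:3xGFP cells (exact p = 0.3). Its reads were thus present at a low level in both populations and overlapped.

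Auxin genes gave a mixed picture below the threshold. Of 14 tested genes of auxin transport and response none was called by limma, while 1 was higher and 4 lower at an unadjusted p under 0.05 and a fold over 2. Of all 7801 tested genes, 211 were higher and 616 lower at those thresholds. In 4 genes all FEZ:FEZ-GFP values lay below and in 1 they lay above, where 12% and 5.28% of all tested genes did so. PIN4 (AT2G01420), an efflux carrier of the root tip, had 5.13, 2.95 and 0.672 FPKM in FEZ:FEZ-GFP cells, against 13.01, 21.0 and 6.85 FPKM in TMO5:3xGFP cells (-1.97, adjusted p = 0.105). PIN3, an efflux carrier of the columella, is not among these 14 but in the columella and gravity sensing list. It had 0.378, 0.266 and 0.0762 FPKM in FEZ:FEZ-GFP cells and 3.69, 5.12 and 1.72 FPKM in TMO5:3xGFP cells (-1.79, limma adjusted p = 0.0556). All 3 tested genes of that list had a negative difference and none was called. LAX2, an influx carrier, was also lower in all 3 libraries (-1.53, adjusted p = 0.0749). IAA1, an early auxin-response repressor, ran the other way, with 5.92, 10.8 and 7.82 FPKM in FEZ:FEZ-GFP cells and 3.24, 2.96 and 0.876 FPKM in TMO5:3xGFP cells (1.503, adjusted p = 0.139). Of 5 tested cytokinin response genes none was called or passed an unadjusted limma p of 0.05 with a fold over 2, and all overlapped, while 4 had a positive difference and the median was 0.59. The list summed to 6.49 to 14 FPKM in FEZ:FEZ-GFP cells and 5.87 to 6.49 FPKM in TMO5:3xGFP cells.

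Flavonoids are phenolic pigments and signals made from coumaroyl-CoA by chalcone synthase (TT4), chalcone isomerase (TT5) with its helper CHIL, the hydroxylase F3H and flavonol synthase FLS1. Like the terpene, LEA, Stig1, ethylene and aquaporin families, this pathway and the glutathione transferases below were picked out after their values were seen. All 5 tested pathway genes had every FEZ:FEZ-GFP value below every TMO5:3xGFP value, as 12% of all tested genes did, and 2 fell, where 0.615% of all tested genes were called lower. For TT5, under 1 FPKM in every FEZ:FEZ-GFP library, the filter fixed the lack of overlap. CHIL (AT5G05270) had 2.40, 0.0909 and 0.1598 FPKM in FEZ:FEZ-GFP cells, against 9.99, 9.45 and 9.59 FPKM in TMO5:3xGFP cells, a difference of -2.71 ± 0.47 (adjusted p = 0.0181). The 3 TMO5:3xGFP libraries were nearly level for CHIL, and replicate 2 did not stand out. TT5 (AT3G55120) had 0.635, 0.0559 and 0.866 FPKM in FEZ:FEZ-GFP cells, against 4.90, 5.96 and 4.07 FPKM in TMO5:3xGFP cells, a difference of -2.01 ± 0.40 (adjusted p = 0.0396). Both calls were lost without FEZ:FEZ-GFP replicate 2 or without TMO5:3xGFP replicate 1 or 2. TT4 (AT5G13930) had 8.05, 5.10 and 6.08 FPKM in FEZ:FEZ-GFP cells and 27.3, 23.5 and 23.8 FPKM in TMO5:3xGFP cells, just short of the threshold (-1.82, adjusted p = 0.0565). F3H was similar (-1.68, adjusted p = 0.0565), and FLS1 smaller (-0.97, adjusted p = 0.368). The one other tested gene annotated with a flavonoid enzyme product, AT5G66230, ran the other way (1.84, adjusted p = 0.0819).

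Tau-class glutathione transferases, which attach glutathione to electrophiles and foreign compounds, were likewise lower as a run of neighbouring genes. On chromosome 2 (12617936 to 12632538, TAIR10.1, minus strand) GSTU7 to GSTU1 lie side by side. In 7 of 7 every FEZ:FEZ-GFP value was below every TMO5:3xGFP value, with a median of -1.80, but none was called (adjusted p 0.0606 to 0.228). GSTU2 (AT2G29480) had 1.44, 1.01 and 0.270 FPKM in FEZ:FEZ-GFP cells, against 6.14, 5.23 and 4.10 FPKM in TMO5:3xGFP cells. GSTU5 (AT2G29450) was the most abundant, with 10.0, 13.7 and 24.3 FPKM in FEZ:FEZ-GFP cells and 49.3, 114.1 and 35.1 FPKM in TMO5:3xGFP cells. Of all 24 tested glutathione transferases, 23 had a negative difference, with a median of -1.24 against -0.11 over all tested genes. In 14 all FEZ:FEZ-GFP values lay below, as in 12% of all tested genes. The summed FPKM of all 55 annotated members was 264 to 292 in FEZ:FEZ-GFP cells and 421 to 980 in TMO5:3xGFP cells. How reads shared by such close relatives were assigned is not given in the sources used here, so the share of each member is uncertain.

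The promoters of 2 genes of each group are shown because the members of a group differed in the same direction. Each is the 250 bases before the RefSeq gene start, 5′ to 3′ on the gene's strand (TAIR10.1). The motifs CACGTG (G-box), TGACG, and TTGACC or TTGACT (W-box) were searched on both strands, and their matches are in capitals. CHIL lies at chr5:1563036-1563285 and TT4 at chr5:4488226-4488475, both on the plus strand. GSTU7 lies at chr2:12618900-12619149 and GSTU1 at chr2:12632539-12632788, both on the minus strand.
CHIL: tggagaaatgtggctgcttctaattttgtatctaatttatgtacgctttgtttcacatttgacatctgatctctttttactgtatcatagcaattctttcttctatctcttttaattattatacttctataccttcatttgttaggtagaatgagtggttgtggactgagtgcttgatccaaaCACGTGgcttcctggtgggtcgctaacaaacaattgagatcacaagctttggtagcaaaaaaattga
TT4: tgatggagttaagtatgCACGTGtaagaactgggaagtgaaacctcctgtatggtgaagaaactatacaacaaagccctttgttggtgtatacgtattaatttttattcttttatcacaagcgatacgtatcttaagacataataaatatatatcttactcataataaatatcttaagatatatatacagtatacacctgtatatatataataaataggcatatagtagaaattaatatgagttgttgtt
GSTU7: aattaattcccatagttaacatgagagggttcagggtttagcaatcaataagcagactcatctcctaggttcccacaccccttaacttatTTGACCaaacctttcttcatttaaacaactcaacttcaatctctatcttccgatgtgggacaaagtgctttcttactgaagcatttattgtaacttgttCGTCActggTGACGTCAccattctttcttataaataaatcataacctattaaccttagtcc
GSTU1: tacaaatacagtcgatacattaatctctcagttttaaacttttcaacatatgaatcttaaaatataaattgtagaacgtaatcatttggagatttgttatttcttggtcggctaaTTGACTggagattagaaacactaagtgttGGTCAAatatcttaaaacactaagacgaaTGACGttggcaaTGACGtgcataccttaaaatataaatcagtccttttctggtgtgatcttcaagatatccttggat
A G-box was present in 3 of the 5 flavonoid promoters, 67 bases before the start of CHIL and 233 before that of TT4, and in 8.31% of the 7594 promoters of tested nuclear genes of the same length. In the GSTU run, 5 of 7 promoters held TGACG and 5 of 7 a W-box, which 19.9% and 29.2% of all tested promoters held. In the GSTU7 promoter 2 matches of TGACG overlap on opposite strands. Among the 43 nuclear genes called lower, 6.98% had a G-box, 11.6% TGACG and 37.2% a W-box. A match is a description of these letters and not a site of binding.

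**Figure D3:**
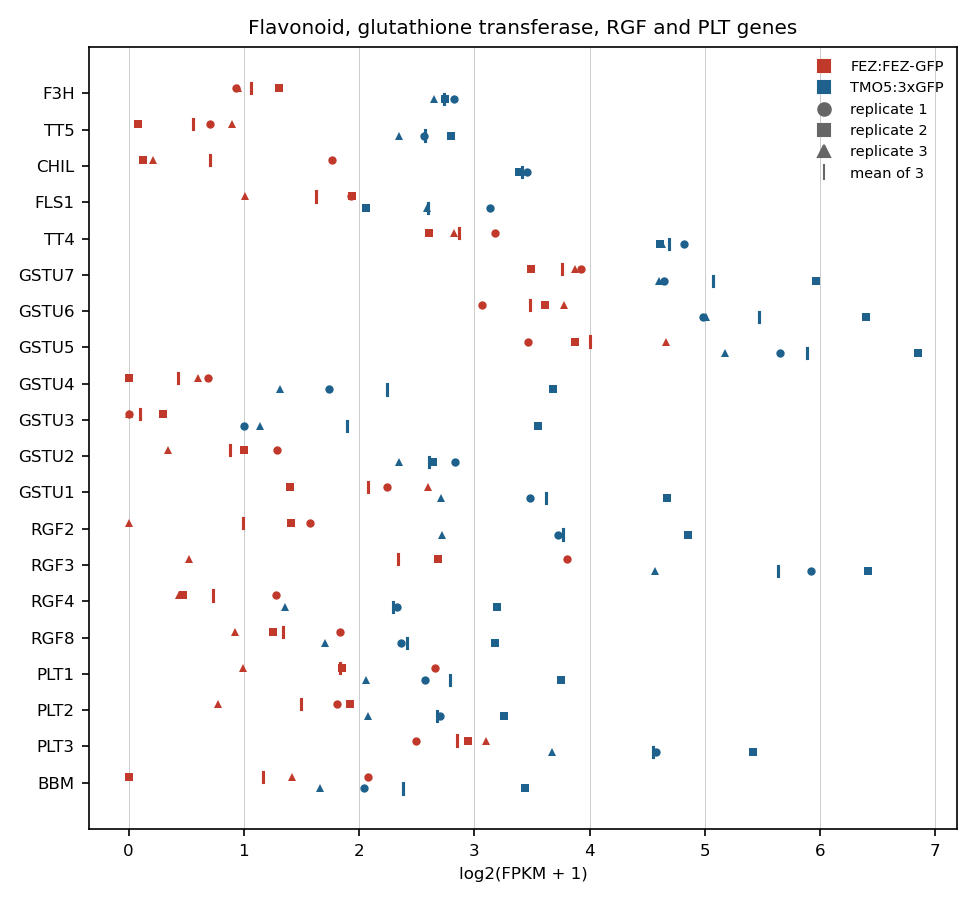
Level of flavonoid, GSTU, RGF and PLT genes in each library, as log2(FPKM + 1) on the horizontal axis, with FEZ:FEZ-GFP above TMO5:3xGFP for each gene. The groups do not overlap for the 5 flavonoid and 7 GSTU genes, and do overlap for RGF8, PLT1 and BBM.

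Stress genes lay in both directions without a call. Of 11 tested genes of the stress and protoplasting list, 9 had a negative difference, 4 of them with an unadjusted limma p under 0.05 and a fold over 2, with a median of -0.73. At those thresholds 616 of all 7801 tested genes were lower. All FEZ:FEZ-GFP values lay below in 3 of the 11 and above in 1, against 12% and 5.28% of all tested genes. WRKY33, a defense regulator, had 5.52, 5.57 and 5.47 FPKM in FEZ:FEZ-GFP cells and 9.76, 11.9 and 8.12 FPKM in TMO5:3xGFP cells (-0.73, adjusted p = 0.485). DREB2A, a drought and heat regulator and the most abundant of the list, was higher in every FEZ:FEZ-GFP library, at 246.6, 283.3 and 225.4 FPKM, against 103.6, 144.6 and 176.7 FPKM in TMO5:3xGFP cells (0.85, adjusted p = 0.423). The list summed to 349 to 410 FPKM in FEZ:FEZ-GFP cells and 255 to 458 FPKM in TMO5:3xGFP cells, and its part in the flavonoid and glutathione transferase values was not tested.

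Aquaporins had higher values in FEZ:FEZ-GFP cells without passing the threshold. Aquaporins are membrane channels for water and small solutes. Of 14 tested, 13 had a positive difference, 3 did not overlap, against 5.28% of all tested genes, and none was called by limma, with 5 higher at an unadjusted p under 0.05 and a fold over 2 and a median of 0.87. At those thresholds 211 of all 7801 tested genes were higher. PIP3 (AT4G35100), a channel of the plasma membrane, had 52.8, 80.2 and 38.1 FPKM in FEZ:FEZ-GFP cells, against 21.1, 12.6 and 26.0 FPKM in TMO5:3xGFP cells (1.47, adjusted p = 0.167). PIP1B had 29.0, 35.2 and 26.1 FPKM in FEZ:FEZ-GFP cells, against 16.0, 3.17 and 21.8 FPKM in TMO5:3xGFP cells, with TMO5:3xGFP replicate 2 far below its replicates (1.40, adjusted p = 0.287). Among wall genes, members of a family went both ways, with 25 higher and 18 lower of 43 tested pectin enzymes. Expansins had 7 higher and 2 lower, and xyloglucan endotransglucosylases 7 and 3. The medians of these families were 0.25, 0.36 and 0.37, against -0.11 over all tested genes. EXPA14 (AT5G56320), an expansin that loosens walls, had 9.21, 5.11 and 1.73 FPKM in FEZ:FEZ-GFP cells and 0.687, 0.188 and 0.263 FPKM in TMO5:3xGFP cells (2.02, adjusted p = 0.0603). The summed FPKM of all aquaporins was 172 to 298 in FEZ:FEZ-GFP cells and 58.9 to 165 in TMO5:3xGFP cells, so the groups did not overlap in the sum.

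Cell cycle genes gave no limma call among 12 tested, with 3 higher and 1 lower at an unadjusted p under 0.05 and a fold over 2. Of all 7801 tested genes, 211 were higher and 616 lower at those thresholds. All FEZ:FEZ-GFP values lay above in 3 of the 12 and below in 2, against 5.28% and 12% of all tested genes. CYCB1;2, a mitotic cyclin, had 2.56, 4.83 and 1.24 FPKM in FEZ:FEZ-GFP cells, against 0.196, 0.591 and 0 FPKM in TMO5:3xGFP cells, with no overlap (1.54, adjusted p = 0.112). Of the inhibitors of cyclin-dependent kinases, KRP6 was also higher in every FEZ:FEZ-GFP library (1.27, adjusted p = 0.144), while KRP7 was lower in every one (-1.0025, adjusted p = 0.318). The core kinase CDKA;1 overlapped (-0.47, adjusted p = 0.704).

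**Figure D4:**
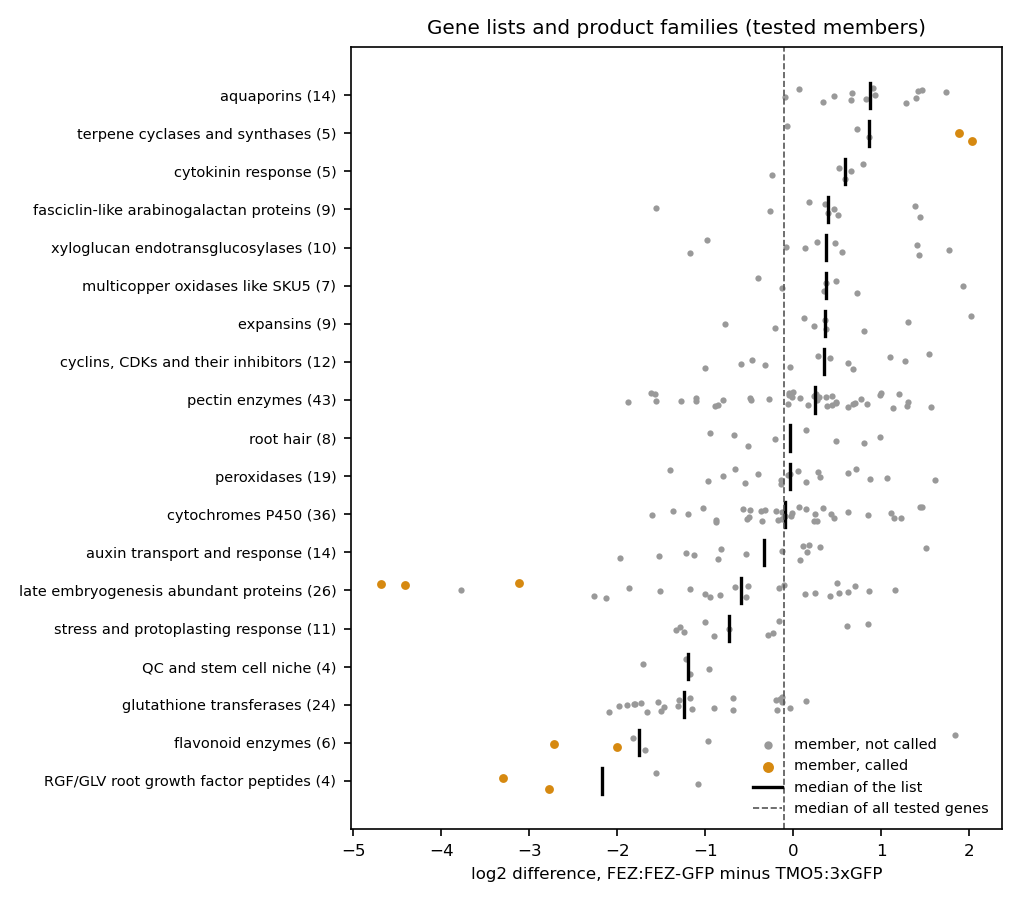
Log2 difference, FEZ:FEZ-GFP minus TMO5:3xGFP (horizontal), of the tested members of gene lists and product families, with called members in orange, the median of each list as a black bar and the median of all tested genes (-0.11) as a dashed line. Aquaporins have a median of 0.87 and RGF peptides one of -2.17.

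Most tested organelle genes had lower values in FEZ:FEZ-GFP cells, while their summed FPKM did not follow. Mitochondrial genes summed to 46500 to 72400 FPKM in FEZ:FEZ-GFP cells and 27600 to 53000 FPKM in TMO5:3xGFP cells, and chloroplast genes to 4640 to 7610 FPKM in FEZ:FEZ-GFP cells and 4850 to 7850 FPKM in TMO5:3xGFP cells. Over all tested genes the median was -0.11 and 0.615% were called lower. Of 79 tested chloroplast genes the median was -0.77 and 4 were called lower. They were led by ATCG00700, which was listed at 0 in every FEZ:FEZ-GFP library and had 76.2, 48.2 and 26.8 FPKM in TMO5:3xGFP cells (limma adjusted p = 1.944e-05). It remained called in all 17 alternatives planned for the comparison. Of 116 tested mitochondrial genes the median was -0.52 and 1, ATMG00850, was called lower, near the share of all tested genes. That call was lost without FEZ:FEZ-GFP replicate 2 or TMO5:3xGFP replicate 2. Many mitochondrial genes are also present as a near-identical copy in the nuclear genome, where 97 tested genes lie in the insertion of mitochondrial DNA on chromosome 2. The nuclear call AT2G07703, uncharacterized, lies in that insertion (3375516 to 3375878), and reads of both copies may not be separable. It had 0.753, 2.74 and 2.08 FPKM in FEZ:FEZ-GFP cells and 16.1, 21.4 and 13.8 FPKM in TMO5:3xGFP cells (adjusted p = 0.0113), a call lost without TMO5:3xGFP replicate 1 or 2.

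Positions along the chromosomes were compared in windows of 1 Mb, and a stretch of chromosome 4, from 15 to 17 Mb, is described here. It was found after seeing the values, so no test is given. It holds 211 tested genes, 2.78% of those of the nucleus. After each library was centred on its median, 149 of them (70.6%) were higher in FEZ:FEZ-GFP, with a median difference of 0.35. The library medians in the stretch were 0.293, 0.284 and 0.227 in FEZ:FEZ-GFP cells and -0.189, -0.241 and -0.127 in TMO5:3xGFP cells, so the groups did not overlap. All FEZ:FEZ-GFP values lay above in 17.1% of the genes in the stretch, against 5% of other nuclear genes, and below in 4.74%, against 11.9%. The flank from 13 to 15 Mb had a median of 0.06 and the part beyond 17 Mb one of -0.13. The same libraries of CYCD6:GFP and WOX5:GFP cells were set against both populations, and the centred median over the stretch was 0.27 and 0.20 for FEZ:FEZ-GFP and -0.08 and -0.14 for TMO5:3xGFP. Over the 84 genes of the stretch with a mean FPKM over 3, it was 0.25 and 0.20 for FEZ:FEZ-GFP. For TMO5:3xGFP it was -0.29 and -0.29 over these genes, against -0.06 and -0.07 over other nuclear genes of that level. Of the 104 windows of 1 Mb with at least 20 tested genes, the 2 in the stretch had the highest medians, and the next had 0.32 over 25 genes. The lowest was of similar size in the other direction, at -0.34 over 100 genes on chromosome 2 from 3 to 4 Mb, the window of the mitochondrial insertion, where 28 genes lay below without overlap and 2 above.

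Of the 21 genes higher whose adjusted p was under 0.1 and whose fold was over 2, 7 lie in the stretch. They comprise AT4G35030, described above, and genes for wax and vacuole functions among others. CER4 (AT4G33790), a fatty acyl reductase that makes wax alcohols, had 6.12, 5.39 and 1.46 FPKM in FEZ:FEZ-GFP cells and 0, 0.488 and 0.390 FPKM in TMO5:3xGFP cells (1.92, adjusted p = 0.0606). VAMP711 (AT4G32150), a SNARE of the vacuole, had 6.01, 4.80 and 3.25 FPKM in FEZ:FEZ-GFP cells and 1.39, 0.957 and 0.617 FPKM in TMO5:3xGFP cells (1.505, adjusted p = 0.0969). AT4G33120 had 17.4, 14.8 and 17.4 FPKM in FEZ:FEZ-GFP cells and 5.31, 3.52 and 3.16 FPKM in TMO5:3xGFP cells (1.83, adjusted p = 0.0545). TCX2 itself lies outside the stretch on the same chromosome (8480634 to 8484976). PIP3, described above, lies inside it (16708361 to 16710407). The tcx2 allele and the population cannot be told apart in this stretch either.

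**Figure D5:**
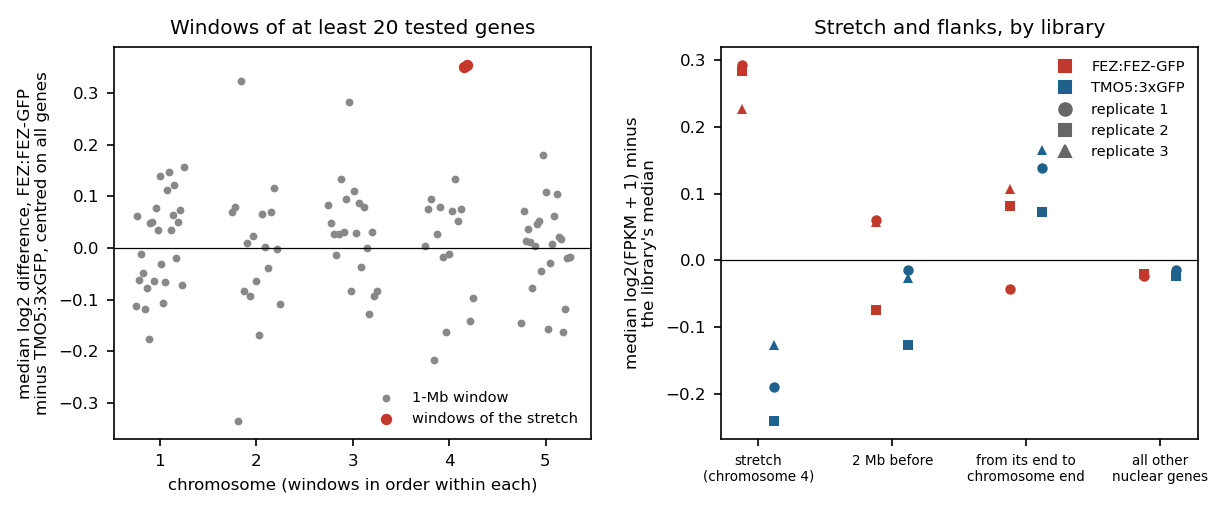
Left, median centred log2 difference, FEZ:FEZ-GFP minus TMO5:3xGFP, in windows of 1 Mb with at least 20 tested genes, by chromosome. Right, library medians in the stretch of chromosome 4 and its surroundings, where the 3 FEZ:FEZ-GFP libraries are at 0.227 to 0.293 and the 3 TMO5:3xGFP libraries at -0.241 to -0.127.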

How the data were processed

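Seedlings were grown for 5 days, root tips of about 1 to 2 mm were protoplasted and GFP-positive cells were sorted. Per the labels, libraries were made with a SMARTer stranded kit and read as single ends. The paper names a SMART-Seq Ultra Low Input kit for its sorted stem cell profile and no kit for the sorted mutant cells. Which kit made these libraries is unclear. The deposited values were FPKM per gene and library, which the authors made with Bowtie and the Tuxedo tools (Cufflinks) against TAIR10. Tool versions and how shared reads were assigned are not given in the sources used here. FPKM keeps no depth, so the precision is given by the spread between libraries.

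Groups were taken from the labels, and FEZ:FEZ-GFP was compared with TMO5:3xGFP on log2(FPKM + 1) with limma 3.58.1 (R 4.3.3, moderated test with an intensity trend), with 3 libraries a group. Genes needed 1 FPKM in at least 3 of the 6 libraries. Fold changes on this scale understate those of low genes. P-values were adjusted by Benjamini-Hochberg over 7801 genes and calls needed an adjusted p under 0.05 and a fold over 2. Of 33560 listed identifiers, 32826 matched RefSeq TAIR10.1 locus tags, which gave names, products and coordinates.

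Named genes were FEZ, SMB, BRN1, BRN2, TMO5, T5L1, LHW, WOX5, CYCD6;1 and TCX2, and called members of the lists and of 7 product families. Up to 12 nuclear calls with the largest difference in each direction were also named, among those without overlap between the groups. Other families, the flavonoid pathway, the GSTU run, the chromosome 4 stretch and every other named gene were chosen after values were seen. The members and lists were chosen with earlier results of these data known. Other pseudocounts, filters, scalings, a replicate block, array weights, all 12 sorted libraries, no trend and each library left out were tried.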

Additional observations from a re-analysis of the deposited data

How the results depend on the processing

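The counts of calls, 3 higher and 48 lower in FEZ:FEZ-GFP, depended on the processing, and the cause of each change was not tested. Higher and lower calls numbered 0 and 13 with a pseudocount of 0.1, 1 and 17 with a pseudocount of 5, 0 and 1 without the filter, and 2 and 10 with a filter at 5 FPKM. They numbered 4 and 24 after median centring, 4 and 20 after quantile normalization, 11 and 86 after rescaling to the nuclear sum, 527 and 636 with array weights, 6 and 84 on all 12 sorted libraries, and 5 and 54 without an intensity trend. Leaving out 1 library gave 0 to 23 higher and 8 to 123 lower calls. Leaving out FEZ:FEZ-GFP replicate 3 and TMO5:3xGFP replicate 2 together, chosen after seeing the data, gave 4 and 11. Genes with no overlap, 412 higher and 938 lower, became 772 and 2644 without the filter, 128 and 214 at 5 FPKM, 800 and 779 after centring and 804 and 803 after quantile normalization. With 1 library left out they numbered 535 to 1328 higher and 1055 to 1724 lower.

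Array weights rested on TMO5:3xGFP replicate 1, weighted 4.82, against 0.368 for FEZ:FEZ-GFP replicate 3. The replicate block gave 24 higher and 161 lower calls, among them all 51 of the fit without it. Same-numbered libraries did not deviate together, with correlations of -0.059, -0.068 and 0.014. With 3 libraries a group, such values cannot settle whether same-numbered libraries were handled together. Centring together with the replicate block, chosen after seeing the data, gave 0 and 14. The 17 named calls kept their direction in all 317 combinations of gene and alternative, and 191 of these stayed past the threshold while 126 did not. As none of these 17 genes had overlapping groups, leaving out libraries or changing the pseudocount or filter could not reverse a direction. The number of reads is unknown, so low genes listed at 0 cannot be given a limit of detection.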

Other observations

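Beyond the lists above, genes of other functions lay just short of the threshold on the FEZ:FEZ-GFP side, and were picked after their values were seen. CRF3, a cytokinin response factor, had 8.32, 5.32 and 6.05 FPKM in FEZ:FEZ-GFP cells and 1.49, 1.12 and 0.933 FPKM in TMO5:3xGFP cells (log2 difference 1.78, limma adjusted p = 0.0503). UBC20, a ubiquitin-conjugating enzyme, had 2.28, 4.16 and 1.66 FPKM in FEZ:FEZ-GFP cells and 0, 0.172 and 0.468 FPKM in TMO5:3xGFP cells (1.57, adjusted p = 0.0774). Multicopper oxidase sks4 had 19.6, 16.2 and 7.92 FPKM in FEZ:FEZ-GFP cells and 2.28, 2.50 and 4.02 FPKM in TMO5:3xGFP cells (1.92, adjusted p = 0.0603).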
